A study of Mus musculus with 18 samples.

Results

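Transcripts of 38 cell cycle and proliferation genes were followed in the pancreas of 18 mice, out of 25651 genes in the deposited table. The genes were chosen by name, as a list of well-known parts of DNA replication and mitosis, and all 38 were found in the table by their symbol. They fall into 8 roles, from the loading of the replicative helicase to the motors of the spindle. The mice were 20 weeks old on a mixed 129Sv and C57BL/6 background. The genotype labels gave 6 wild-type (WT), 7 KPC and 5 KPC ASC KO animals. In common use, KPC denotes a genetic mouse model of pancreatic cancer driven by a Cre recombinase in the pancreas. The labels do not spell the alleles out, name the driver of the Cre or say whether the WT mice carry any of them. KPC ASC KO mice lack ASC, the inflammasome adaptor encoded by Pycard, on the KPC background. RNA came from pieces of whole pancreas, so that a lower transcript level can mean fewer cells of a type or less of the transcript in each cell, and these cannot be told apart.

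A dividing cell copies its DNA in S phase and separates the copies in mitosis. The MCM helicase, PCNA and the enzymes that make deoxynucleotides are induced as cells enter S phase, largely through E2F transcription factors. Cyclins A and B, the Aurora and Polo kinases, the spindle checkpoint and the chromosomal passenger proteins are induced later, in G2 and mitosis, through promoters that often carry a CCAAT box and a cell cycle homology region (CHR). Acinar cells, the enzyme-making cells that form most of the pancreas, seldom divide in the adult, whereas tumour epithelium, activated stroma and immune cells can.

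The promoters of 8 members are printed because these genes carry the differences between groups described below, or because their motifs show the layout shared by the mitotic genes. Each line gives the 120 bases before the RefSeq start, 5′ to 3′ on the strand of the gene, in build GRCm38.p6. Capitals mark a match on either strand to the CHR (TTTGAA), the CCAAT box (its letters CCAAT) or an E2F motif (TTTCCCGC, TTTGGCGC, TTTCGCGC or TTTGCCGC). The 3 replication and tubulin genes shown are Mcm6 at chr1:128359706-128359825 (minus strand), Pcna at chr2:132253181-132253300 (minus strand) and Tubb5 at chr17:35838302-35838421 (minus strand). The 5 mitotic and chromatin genes shown are Cenpa at chr5:30666766-30666885 (plus strand), Top2a at chr11:99024190-99024309 (minus strand), Hmgb2 at chr8:57511723-57511842 (plus strand), Mki67 at chr7:135716380-135716499 (minus strand) and Cdc20 at chr4:118437344-118437463 (minus strand).
Mcm6: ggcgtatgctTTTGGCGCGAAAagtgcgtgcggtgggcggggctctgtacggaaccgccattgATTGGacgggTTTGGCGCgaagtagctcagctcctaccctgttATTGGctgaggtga
Pcna: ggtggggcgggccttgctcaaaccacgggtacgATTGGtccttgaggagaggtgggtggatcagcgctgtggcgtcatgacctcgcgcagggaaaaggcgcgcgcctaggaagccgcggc
Tubb5: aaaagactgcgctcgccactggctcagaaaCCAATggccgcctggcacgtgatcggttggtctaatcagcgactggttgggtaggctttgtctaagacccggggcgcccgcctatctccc
Cenpa: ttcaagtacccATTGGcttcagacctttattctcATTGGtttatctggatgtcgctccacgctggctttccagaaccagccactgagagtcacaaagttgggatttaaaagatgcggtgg
Top2a: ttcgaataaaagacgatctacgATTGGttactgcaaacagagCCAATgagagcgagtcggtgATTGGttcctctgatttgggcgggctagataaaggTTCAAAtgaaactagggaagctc
Hmgb2: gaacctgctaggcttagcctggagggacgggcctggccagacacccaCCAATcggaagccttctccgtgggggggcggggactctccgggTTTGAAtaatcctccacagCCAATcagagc
Mki67: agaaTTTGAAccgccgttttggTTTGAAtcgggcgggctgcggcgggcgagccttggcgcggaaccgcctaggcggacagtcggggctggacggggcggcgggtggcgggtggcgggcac
Cdc20: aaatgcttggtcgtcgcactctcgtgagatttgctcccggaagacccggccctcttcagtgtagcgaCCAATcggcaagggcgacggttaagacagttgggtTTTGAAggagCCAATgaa
Within the printed bases, 3 mitotic and chromatin promoters (Top2a, Hmgb2 and Cdc20) hold a CHR at most 30 bases before the start with at least 1 CCAAT box further upstream. Cenpa has its CHR 16 bases after the start, outside the printed stretch, with CCAAT boxes at 109 and 86 bases before it. In Mki67 a pair of CHR matches lies at 116 and 98 bases before the start, and its CCAAT boxes, at 188, 166 and 141 bases before it, are not printed. Mcm6 is the only printed promoter with an E2F motif, at 3 places of which a pair overlap each other.

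RefSeq promoters, from 250 bases before to 50 after the start, were found for 31 of the 38 members. A CHR match on either strand was present in 16 of the 31 (51.6%), against 18.1% of all 27025 promoters in the reference. A CCAAT box was present in 27 (87.1%), against 37.9% of all promoters, and an E2F motif in 5 (16.1%), against 2.32%. All 16 promoters with a CHR also held a CCAAT box (51.6% of 31), a pairing seen in 7.12% of all promoters. By arm of the cell cycle, 14 of the 18 mitotic promoters held a CHR, 16 a CCAAT box and 1 an E2F motif. Of the 11 replication promoters, 1 held a CHR, 9 a CCAAT box and 4 an E2F motif. The members were chosen as cell cycle genes, so that these shares describe the list, and a match to letters is not a shown binding site.

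The libraries were shallow for genes of this kind. Totals ran from 294077 to 416879 unique molecular counts in WT, from 452472 to 1626977 in KPC and from 374432 to 647947 in KPC ASC KO mice. The 38 genes together held 50 to 91 counts in a WT library, 152 to 1885 in a KPC library and 63 to 260 in a KPC ASC KO library. Levels are given as CPM, the usual depth-scaled counts, after scaling by trimmed mean of M values (TMM), and are therefore coarse. A single count is worth 3.40 to 5.16 CPM in WT, 0.311 to 2.40 CPM in KPC and 1.86 to 4.22 CPM in KPC ASC KO mice. The usual filter of edgeR, about 21.4 CPM before TMM scaling in at least 5 libraries, kept 9 members (Mcm6, Mcm7, Pcna, Rrm1, Cenpa, Top2a, Hmgb2, Stmn1 and Tubb5) among 6920 genes and dropped 29. Of the 9, only Tubb5 reached that unscaled level in 5 WT libraries. The others passed through the KPC mice, so their share of calls is not evidence about the whole list, and a fit without the filter on all 25651 genes is given beside it. Pycard, checked as the targeted gene, was lower in KPC ASC KO than in KPC mice (log2 -1.94, SE 0.35, edgeR quasi-likelihood test, adjusted p = 0.0043). Its remaining 3′ tags need not come from intact transcript, since the deleted part is not named in the labels.

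Cell cycle transcripts were more abundant in KPC than in WT pancreas, and unevenly so among the KPC mice. Summed over the 38 genes they took 281.7 ± 24.1 CPM (SD, n = 6) in WT mice. In KPC mice they took 696.3 ± 341.2 CPM (SD, n = 7), a ratio of the means of 2.47. The WT mice ranged from 258 to 313.8 CPM with a median of 273.7, and the KPC mice from 332 to 1171 with a median of 638.2, so that no KPC mouse fell within the WT range. A mean of 23.8 of the 38 genes had a count in a WT library and 37.0 in a KPC library, at unequal depth. The ratio depends on how the libraries are scaled, because acinar enzyme genes took 52.2% to 63.6% of counts in WT and 4.89% to 43.8% in KPC mice. It was 6.06 as a plain share of all counts and 3.11 as a share of the counts outside a list of 34 acinar secretory genes.

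**Figure D1:**
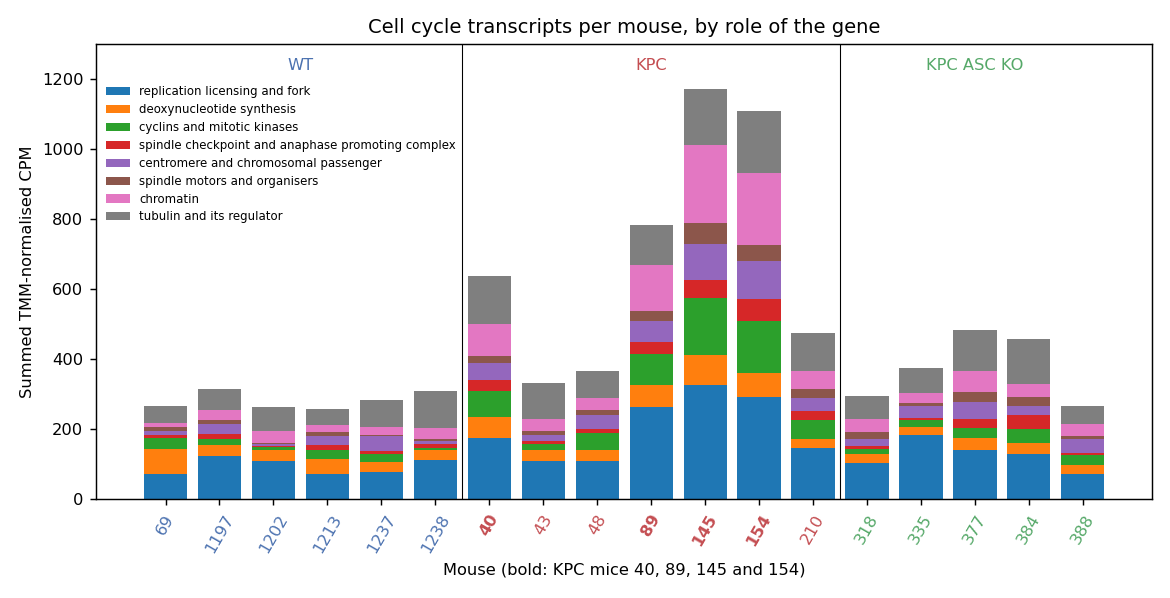
Summed TMM-normalised CPM of the 38 genes in each mouse (vertical axis, from 0), stacked by the role of the gene, for the 3 genotypes (1 bar per mouse, no error bar since each bar is 1 library). The WT bars stand between 258 and 313.8 CPM, KPC mice 145 and 154 reach 1171 and 1110, and KPC mouse 43 stays at 332.

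The mitotic arm differed more than the replication arm. The 22 mitotic genes, from the cyclins to the spindle proteins with Mki67 and Top2a, summed to 68.9 ± 23.2 CPM in WT (SD, n = 6) and to 274.7 ± 175.5 CPM in KPC (SD, n = 7), a ratio of 3.99. The 13 genes of replication and deoxynucleotide synthesis summed to 133.4 ± 18.6 CPM in WT (SD, n = 6) and to 255.1 ± 111.1 CPM in KPC (SD, n = 7), a ratio of 1.91. The mitotic genes made up 24.5% ± 7.98 (SD, n = 6) of the WT member counts and 36.9% ± 7.54 (SD, n = 7) of the KPC member counts. The lowest KPC share, 22.2% in mouse 43 (exact 95% binomial interval 19.7% to 24.8%, counting error only), lay inside the WT range of 12.9% to 32%, so the groups overlapped. No test was made on these sums, since the genes were chosen with results of these data known.

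In edgeR's quasi-likelihood test 6 of the 9 members that passed the filter rose in KPC against WT and none fell, where 14.8% of all 6920 genes were called higher and 15.1% lower. Their median log2 difference was 1.17, against 0.06 over all genes tested. Without the filter, 17 of 38 members (44.7%) rose and none fell, against 4.37% of all 25651 genes called higher and 5.20% lower. The median over the 38 was 1.48 and that over all genes 0.49. By role, 3 of 9 replication fork genes, 1 of 4 nucleotide enzymes, 4 of 7 cyclins and mitotic kinases and 1 of 4 checkpoint genes rose in the fit without the filter. The others were 2 of 4 centromere and passenger genes, 2 of 5 spindle genes, 3 of 3 chromatin genes and 1 of 2 tubulin genes. Under plain total counts, which moved the median of all 6920 genes to 1.41, all 9 tested members and 35 of 38 were called higher, as were 79.6% of the 6920 genes and 35.4% of the 25651. In limma voom only Tubb5 was called of the 9. With any 1 mouse left out, 5 to 9 members were called of 7 to 15 that then passed the filter, and the 6 kept their calls wherever they were tested. Without the filter 9 of 38 were called with WT mouse 69 left out and 11 with WT mouse 1197, 1202 or 1238 left out, and the range over all single mice was 9 to 20.

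Among replication genes, the clearest differences were in Mcm6, a subunit of the MCM helicase, and in Pcna, the sliding clamp of the DNA polymerases. Mcm6 stood at 5.13, 9.29 and 17.2 CPM (lowest, median, highest of 6) in WT, at 14.9, 22.5 and 50.3 CPM in the 7 KPC mice, and at 14.2, 35.2, 22.3, 22.3 and 8.44 CPM in KPC ASC KO mice 318, 335, 377, 384 and 388. Only KPC mice 43 and 210 lay within the WT range. Mcm6 was higher in KPC than in WT by 1.48 (log2, SE 0.44, edgeR adjusted p = 0.014). Pcna stood at 5.16, 24.7 and 37.9 CPM in WT, at 24.0, 46.1 and 83.9 CPM in KPC, and at 28.5, 43.0, 20.4, 40.8 and 16.9 CPM in the same KPC ASC KO mice. KPC mice 43, 48 and 210 overlapped the WT range, the other KPC mice were above it, and the log2 difference was 1.17 (SE 0.35, adjusted p = 0.016). Mcm7, a further helicase subunit, did not pass (log2 0.78, SE 0.37, adjusted p = 0.11).

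The other replication members were too thin for the filter and are given by their raw counts. Mcm5 had 4 counts over the 6 WT libraries, 174 over those of the 7 KPC mice and 20 with ASC lost as well. Together with Mcm6 and Pcna it was the third fork gene to rise without the filter (adjusted p = 0.0039). The WT, KPC and KPC ASC KO sums were 12, 189 and 33 counts for Mcm2, 11, 192 and 14 for Mcm3, and 16, 150 and 11 for Mcm4. They were 9, 138 and 16 for Gmnn, the inhibitor of helicase loading, and 8, 134 and 13 for Uhrf1, which carries DNA methylation through replication. None of these last 5 rose past the threshold. Depth differs between the groups, so raw sums are not levels. Mean levels of these 5 were 5.69 to 11.4 CPM in WT and 12.6 to 18.0 CPM in KPC mice.

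The genes of deoxynucleotide synthesis were mixed. Rrm1, the large subunit of ribonucleotide reductase, stood at 0, 7.69 and 44.2 CPM in WT, at 7.504, 16.5 and 31.1 CPM in KPC, and at 2.85, 11.7, 9.28, 13.0 and 8.44 CPM in KPC ASC KO mice 318, 335, 377, 384 and 388. The highest value of all belonged to WT mouse 69, and the KPC to WT difference of 0.22 (SE 0.49, adjusted p = 0.77) did not pass. Its sign turned without WT mouse 1237 (-0.01). Tk1, the thymidine kinase of the salvage pathway, had 3 counts in WT and 110 in KPC libraries and rose without the filter (adjusted p = 0.030). Rrm2, the small subunit of the reductase, had 9, 165 and 13 counts and did not pass. Tyms, which makes thymidylate, averaged 15.8 ± 8.79 CPM in WT (SD, n = 6) against 8.74 ± 4.02 CPM in KPC (SD, n = 7). Its difference of -0.90 (SE 0.49, adjusted p = 0.28) did not pass, and it was 0.34 under total counts.

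Cyclins and mitotic kinases were near the limit of detection in WT pancreas. Aurkb, the Aurora kinase of the chromosomal passenger complex, had no count in any of the 6 WT libraries and 8, 5, 1, 16, 17, 29 and 4 counts in KPC mice 40, 43, 48, 89, 145, 154 and 210. It was the only member of the 38 for which every KPC mouse lay above every WT mouse, against 1.78% of all genes. KPC mice 43 and 48, at 1.55 and 2.40 CPM, lay under the 3.40 to 5.16 CPM of 1 count in a WT library. For these 2 mice the separation is below the limit of detection in WT. A floor of 3 counts over the WT group makes Aurkb at least 3.62-fold higher in KPC. Aurka, the Aurora kinase of the spindle poles, was also without a count in WT and had 25 counts over 6 of the 7 KPC libraries, with none in mouse 210. Against the same floor its pooled KPC level was at least 1.13-fold that of WT, and its difference did not pass in the fit without the filter (adjusted p = 0.13). Both had few counts in KPC ASC KO mice, 4 for Aurkb and none for Aurka.

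Ccnb1 and Ccnb2, the B cyclins that switch on Cdk1, had 1 and 5 counts in WT, 85 and 131 in KPC and 8 each in KPC ASC KO mice. Plk1, the Polo kinase that drives entry into mitosis, had 1, 83 and 9 counts. These 3 and Aurkb are the 4 of this role that rose in the fit without the filter. Ccna2, cyclin A2, had 14, 375 and 17 counts and averaged 9.23 ± 9.13 CPM in WT (SD, n = 6), of which 27.2 CPM came from mouse 69, against 35.0 ± 27.9 CPM in KPC (SD, n = 7). It did not pass (log2 1.88, SE 0.66, adjusted p = 0.089), and neither did Cdk1 itself, with 5, 72 and 8 counts.

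Of the checkpoint genes, Ube2c, the ubiquitin-conjugating enzyme of the anaphase promoting complex, had 3, 159 and 9 counts in the same order of groups and rose without the filter (adjusted p = 0.0029). Cdc20, the activator of that complex, had 6, 97 and 28 counts, with 17 of the 28 in KPC ASC KO mouse 384. Bub1b, a checkpoint kinase, had 4, 67 and 2 counts, and its partner Bub1 had 2, 12 and 2. The last 3 did not pass.

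Among centromere genes, Cenpa, the histone H3 variant that marks the centromere, was the only one deep enough to test. It stood at 3.40, 4.65 and 5.16 CPM in WT, where each library held 1 count, at 3.73, 18.0 and 35.4 CPM in KPC, and at 5.70, 7.81, 11.1, 3.71 and 4.22 CPM in KPC ASC KO mice 318, 335, 377, 384 and 388. KPC mouse 43 lay within the WT range and the other 6 KPC mice above it. The log2 difference between KPC and WT was 2.16 (SE 0.63, adjusted p = 0.012). Cdca8, the passenger protein borealin, had 6, 153 and 17 counts and rose without the filter (adjusted p = 0.040). Birc5, the passenger protein survivin, had 9, 137 and 18 counts, and Cenpf, a kinetochore protein, had 6, 122 and 19, and neither passed.

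Spindle genes were all under the filter. Nusap1, which bundles spindle microtubules, had 1 count in WT and 71 in KPC libraries, and Tpx2, the activator of Aurora A, had 1 and 76. These are the 2 of the 5 that rose without the filter. Kif11, the motor that pushes spindle poles apart, had 2 and 48 counts, Prc1, which bundles the midzone, had 4 and 81, and Kif20a, a motor of cytokinesis, had 5 and 33. KPC ASC KO libraries held 8 counts of Nusap1, 10 of Tpx2, 5 of Kif11, 13 of Prc1 and 3 of Kif20a. Kif20a averaged 3.13 CPM in WT and 3.08 CPM in KPC mice, and its log2 difference of -0.08 was 1.14 under total counts.

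Of the chromatin genes, Top2a had the highest fitted difference of the 9 members that passed the filter. Top2a, the topoisomerase that untangles sister chromatids (chromosome 11, 98992943 to 99024189 in GRCm38), stood at 0, 4.70 and 20.2 CPM in WT, at 12.4, 35.95 and 91.3 CPM in KPC, and at 22.8, 15.6, 27.8, 18.6 and 12.7 CPM in KPC ASC KO mice 318, 335, 377, 384 and 388. KPC mice 43, 48 and 210 lay within the WT range and mice 40, 89, 145 and 154 above it. The log2 difference between KPC and WT was 2.41 (SE 0.63, adjusted p = 0.0070). Hmgb2, a DNA-bending protein made in dividing cells, stood at 3.45, 12.7 and 21.2 CPM in WT, at 12.0, 32.6 and 79.1 CPM in KPC, and at 8.55, 3.91, 25.98, 13.0 and 21.1 CPM in KPC ASC KO mice. KPC mice 43 and 48 overlapped WT, and the log2 difference was 1.86 (SE 0.54, adjusted p = 0.013).

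Mki67, the gene of the Ki-67 protein that coats mitotic chromosomes and serves as the usual histological marker of dividing cells, lies on chromosome 7 at 135689784 to 135716361 (GRCm38). It had 0, 2, 2, 0, 1 and 0 counts in WT mice 69, 1197, 1202, 1213, 1237 and 1238. In KPC mice 40, 43, 48, 89, 145, 154 and 210 it had 19, 15, 1, 48, 95, 74 and 7 counts, or 21.4, 4.66, 2.40, 25.5, 59.0, 44.3 and 10.5 CPM. In KPC ASC KO mice 318, 335, 377, 384 and 388 it had 2, 3, 4, 3 and 0 counts, or 5.70, 11.7, 7.42, 5.56 and 0 CPM. KPC mice 43 and 48 were within the WT range of 0 to 8.48 CPM, and mice 145 and 154 were the highest of all 18. Mki67 failed the filter by 1 library and rose in the fit without it (log2 2.77, SE 0.84, edgeR adjusted p = 0.036).

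Tubb5, a beta tubulin made in most cells, was the member with the most counts in each group, though only 6 to 21 in a WT library. It stood at 31.0, 52.2 and 106 CPM in WT, at 72, 98.8 and 150.4 CPM in KPC, and at 65.5, 66.4, 102.1, 122.4 and 46.4 CPM in KPC ASC KO mice 318, 335, 377, 384 and 388. WT mouse 1238, at 106 CPM, overlapped KPC, and the log2 difference was 0.96 (SE 0.27, adjusted p = 0.010). Among the KPC mice the level of Tubb5 varied less than that of the mitotic genes. Stmn1, which destabilises microtubules, stood at 0, 8.53 and 20.7 CPM in WT and at 4.80, 15.01 and 28.2 CPM in KPC. It was at 0, 3.91, 13.0, 5.56 and 4.22 CPM in KPC ASC KO mice. The 3 groups overlapped, and its KPC to WT difference did not pass (0.78, SE 0.51, adjusted p = 0.26). Tubb5 belongs to a family of closely similar genes, so its counts may hold reads of its relatives. Tk1, Ccna2, Plk1, Cdc20, Ube2c, Cdca8, Nusap1, Prc1, Kif20a and Mcm7 overlap a gene on the opposite strand, and whether the counting used strand is not given in the sources used here.

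**Figure D2:**
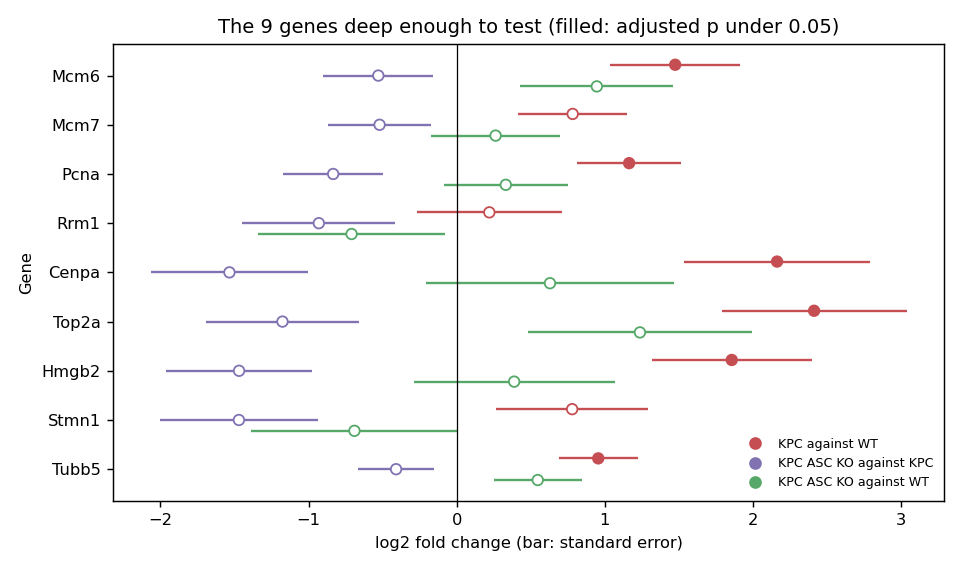
log2 fold change (horizontal axis, bars are standard errors) of the 9 genes deep enough to test in the 3 comparisons of the genotypes (red for KPC against WT, purple for the loss of ASC on KPC, green for KPC ASC KO against WT), with filled points where the edgeR adjusted p was under 0.05. In KPC against WT 6 points are filled, in the other comparisons none, and all 9 points of KPC ASC KO against KPC lie below 0.

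The KPC mice were not alike. B cell, T cell and lymphoid stroma transcripts were high in KPC mice 40, 89, 145 and 154 and lower in mice 43, 48 and 210. This division was made from measured lymphoid transcripts and not from the labels, so values are given mouse by mouse and with no test. The 38 cell cycle genes summed to 638.2, 782.7, 1171 and 1110 CPM in mice 40, 89, 145 and 154, and to 332, 364.8 and 475.7 CPM in mice 43, 48 and 210. In 20 of the 38 genes (52.6%) all 4 of the first mice lay above all 3 of the others, and in none below, where 7.77% of all genes lay above and 6.38% below. These 20 were 6 of the 9 tested members (Mcm6, Pcna, Rrm1, Top2a, Hmgb2 and Tubb5) and 14 of the 29 untested ones, among them Mki67, Ccna2, Aurkb, Ube2c and Birc5.

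The gap between these mice was present in both arms. Mitotic genes summed to between 231.4 and 529.9 CPM in mice 40, 89, 145 and 154 and to between 73.7 and 171.1 CPM in mice 43, 48 and 210. Replication genes summed to between 235.9 and 410.6 CPM in the first mice and to between 139.6 and 171.1 CPM in the others. Ccna2 stood at 30.3, 43.6, 78.9 and 62.3 CPM in mice 40, 89, 145 and 154 and at 6.84, 9.60 and 13.5 CPM in mice 43, 48 and 210. Ube2c stood at 16.9, 17.5, 19.9 and 35.95 CPM in the first and at 3.42, 2.40 and 10.5 CPM in the others. Tyms again did otherwise, at 1.12, 11.2, 8.70 and 7.79 CPM against 9.02, 14.4 and 9.01 CPM, with the 2 ranges overlapping.

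**Figure D3:**
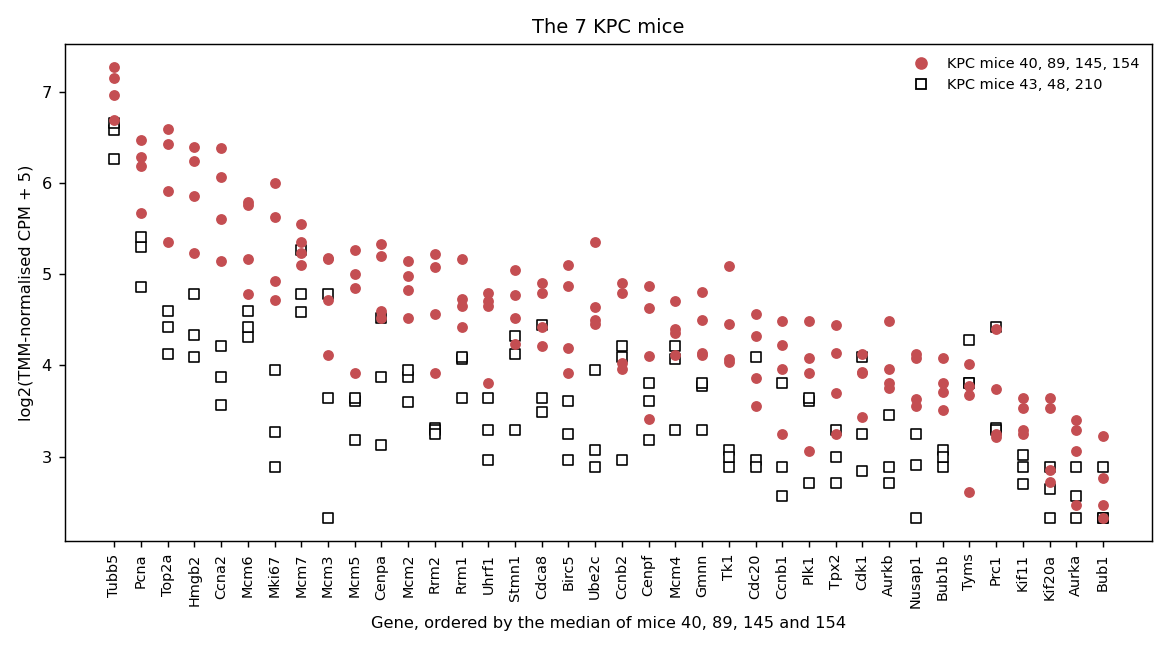
log2(CPM + 5) of each of the 38 genes (horizontal axis, ordered by their median in mice 40, 89, 145 and 154) in the 7 KPC mice, 1 point per mouse, filled for mice 40, 89, 145 and 154 and open squares for mice 43, 48 and 210. In 20 genes every filled point lies above every open square, with wide gaps for Top2a, Ccna2 and Mki67, and overlap for Tyms, Prc1 and Bub1.

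Mice 43, 48 and 210 lay closer to WT, to a degree that depends on the scaling. Their summed levels of 332 to 475.7 CPM were above the highest WT mouse at 313.8 CPM. Aurkb, however, was the only single gene of the 38 in which all 3 lay above all 6 WT mice (3.91% of all genes did). In mice 43 and 48 it stood at 1.55 and 2.40 CPM, under the 3.40 to 5.16 CPM that 1 count is worth in a WT library. That separation is therefore below the limit of detection in WT. In CPM without TMM scaling the 38 genes in mice 43, 48 and 210 stood at 656.4, 335.9 and 611.1, against 156.7 to 223 in WT. In CPM of the counts outside the acinar genes they stood at 690.2, 597.4 and 862.8, against 379.2 to 487.5. Fitted with these 3 as the only KPC mice, edgeR called 0 of the 4 members that still passed the filter (Mcm7, Pcna, Hmgb2 and Tubb5) and 0 of 38 without it, where 6.94% and 2.53% of all genes were called higher. The log2 differences from WT were then 0.48 for Pcna (adjusted p = 0.44), 0.54 for Hmgb2 (adjusted p = 0.58) and 0.64 for Tubb5 (adjusted p = 0.18), and 0.71 for Mki67 without the filter (adjusted p = 0.68). Mcm6 (0.64), Cenpa (1.10) and Top2a (0.85) were tested only without the filter and did not pass (adjusted p = 0.61, 0.51 and 0.48). Some fitted differences of sparse mitotic genes stayed large without passing, among them Aurkb at 3.80 (SE 1.62, adjusted p = 0.19), Aurka at 2.36, Plk1 at 2.33, Ccnb1 at 1.98, Nusap1 at 1.60 and Prc1 at 1.49. Others turned negative, Mcm4, Uhrf1, Rrm1, Rrm2, Ccna2 and Birc5, at -0.61 to -0.03. With mice 40, 89, 145 and 154 as the only KPC mice, 8 of the 9 members that then passed the filter (7 of them among the 9 above) and 25 of 38 were called, against 20.1% and 7.33% of all genes. The mice of these fits were chosen from the same data, the fits hold fewer mice, and the filter passes different members in each. Their calls are therefore descriptive and do not compare the 2 sets of mice.

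Lymphoid transcripts of the KPC mice were set beside their cell cycle genes. These mice had been divided by B cell, T cell and lymphoid stroma transcripts. Gaps between them in the B and T cell sums therefore follow from that division and are not a separate observation. The 11 B cell genes summed to 703, 1109, 1264 and 1242 CPM in mice 40, 89, 145 and 154 and to 35.4, 101 and 140 CPM in mice 43, 48 and 210. They summed to 151 to 211 CPM in WT and 168 to 265 CPM in KPC ASC KO mice. T cell genes ranged from 579 to 732 CPM in the first 4 mice, 201 to 302 in the other 3, and 80.8 to 170.3 in WT. This sum includes Thy1, which was also taken as a fibroblast gene. Thy1 held 858, 72 and 87 counts in mice 43, 48 and 210, where the T cell receptor gene Trac held 11, 4 and 3. The T cell sums of these 3 mice are mostly Thy1 and do not show T cell transcripts above WT. Germinal centre B cells, which divide fast in lymphoid follicles, were looked for by 10 genes. These summed to 65.2 to 179.8 CPM in the first 4 mice, 38.4 to 106.6 CPM in the other 3 and 25.2 to 68.1 CPM in WT. The 10 genes did not move together. Rgs13 held 5, 10, 13 and 31 counts in mice 40, 89, 145 and 154, and 186, 3 and 10 in mice 43, 48 and 210. Mef2b held 1, 17, 33 and 39 counts, and 10, 0 and 2. The 106.6 CPM was that of mouse 43, the deepest library. With the summed B cell genes added to the fit as a covariate, 5 of 9 tested members and 4 of 38 (Aurkb, Hmgb2, Top2a and Tubb5) were called higher in KPC. Of all genes, 13.7% and 4.07% were called higher in these fits. Without the covariate 6 of 9 and 17 of 38 members were called, against 14.8% and 4.37% of all genes. The covariate draws on the lymphoid transcripts behind the division of the mice, and the part of B cells in the difference was not tested.

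Among the KPC mice other than mouse 43, those with acinar shares under 10% had higher cell cycle sums than the rest. KPC mouse 43 had the lowest acinar share of the 18, 4.89% of counts, the deepest library and, after TMM scaling, the lowest cell cycle sum of the KPC mice, 332 CPM. That rank depends on the scaling. Without TMM mouse 43 stood at 656.4 CPM, above mice 48 (335.9) and 210 (611.1). Outside the acinar genes it stood at 690.2, above mouse 48 (597.4). Mice 89, 145 and 154 had shares of 7.84% to 9.80% and cell cycle sums of 782.7 to 1171 CPM. Mice 40, 210 and 48 had shares of 26.2%, 29.2% and 43.8% and sums of 638.2, 475.7 and 364.8 CPM. With the acinar level as a covariate, 0 of 9 and 0 of 38 members were called in KPC against WT, as were 0 of all 6920 genes in the higher direction. Macrophage genes were 2308 to 3465 CPM in KPC and 973 to 1251 CPM in WT, and their part in the cell cycle difference was not tested.

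**Figure D4:**
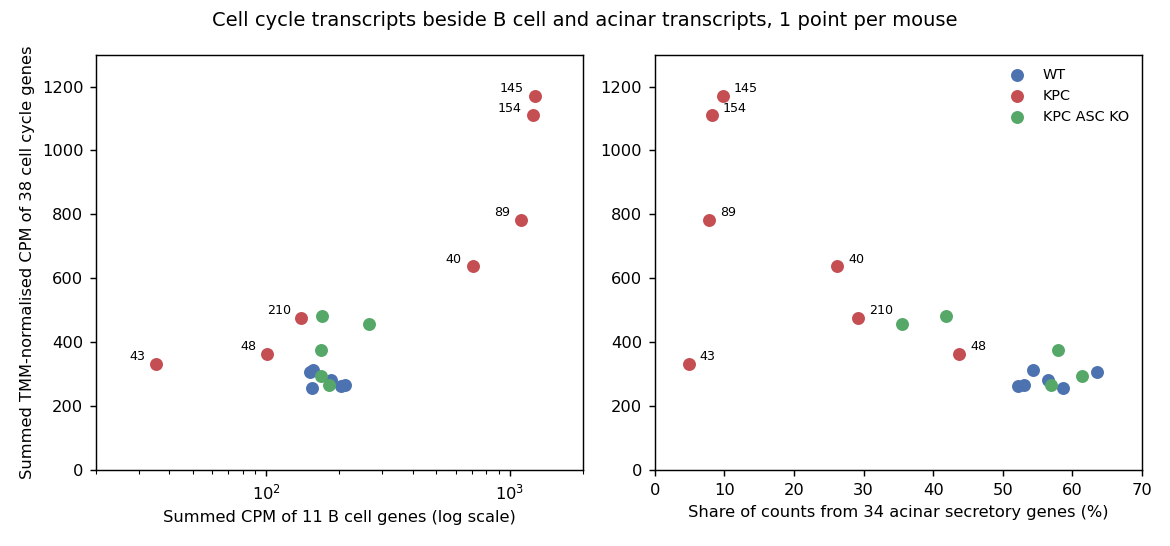
Summed CPM of the 38 cell cycle genes (vertical axis) against the summed CPM of 11 B cell genes on a log axis (left) and against the percent of counts from 34 acinar secretory genes (right), 1 point per mouse, with KPC mice numbered. Mice 40, 89, 145 and 154 lie at the upper right on the left side, while mouse 43 has the lowest B cell level and the lowest acinar share and a sum of 332 CPM.

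Further genes of the cell cycle were taken from 5 lists. Of 40 other replication genes 8 passed the filter, and 2 of these rose in KPC, Rfc2 (log2 1.72, SE 0.34, adjusted p = 0.00093) and Rpa3 (1.56, SE 0.44, adjusted p = 0.011), a subunit of the clamp loader and one of the single-strand binding protein. Lig1, the ligase of Okazaki fragments, at 1.20, and Pold2, a polymerase subunit, at -0.69 and 0.65 under total counts, did not pass. Of all 6920 genes tested, 14.8% were called higher in KPC. Of 53 other mitosis genes 9 were tested and 3 rose. They were the alpha tubulin Tuba1b (1.38, SE 0.21, adjusted p = 0.00011), the condensin subunit Smc4 (1.67, SE 0.40, adjusted p = 0.0038) and the checkpoint protein Bub3 (1.16, SE 0.30, adjusted p = 0.0066). The tubulin Tubb4b, at 0.49, did not pass. The median was 0.77 in the first list and 0.73 in the second, against 0.06 over all genes tested. With 8 and 9 genes tested, the counts of calls describe the lists only. Rfc2 (1.33, adjusted p = 0.040) and Tuba1b (1.02, adjusted p = 0.010) passed also with KPC mice 43, 48 and 210 alone, and Smc4 and Bub3 did not.

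Of 30 G1 and S phase regulators 12 were tested, of which 1 rose and 2 fell, shares near those of all 6920 genes (14.8% called higher and 15.1% lower). Ccnd1, cyclin D1, rose from a WT mean of 93.4 ± 27.3 CPM (SD, n = 6) to a KPC mean of 185.2 ± 11.3 CPM (SD, n = 7; log2 0.99, SE 0.20, adjusted p = 0.00093). It ranged only from 174.1 to 204.6 CPM among the KPC mice, unlike the 38 genes, and was higher also with mice 43, 48 and 210 alone (0.96, adjusted p = 0.015). The phosphatase Cdc25a (-1.36, SE 0.30, adjusted p = 0.0019) and the E2F partner Tfdp2 (-1.66, SE 0.39, adjusted p = 0.0034) fell, and Rbbp4, a chromatin protein that binds the retinoblastoma protein, did not pass at 0.40. Of 14 cell cycle inhibitors 8 were tested, of which 2 rose and 1 fell, beside the same shares of all genes. Tob1, an antiproliferative protein, fell (-1.97, SE 0.46, adjusted p = 0.0043), Cdkn2b, which inhibits Cdk4 and Cdk6, rose (1.83, SE 0.58, adjusted p = 0.020), as did Gadd45b (1.11, SE 0.38, adjusted p = 0.033), and Btg1 did not pass at 0.42. Of 20 p53 targets 9 were tested, of which 1 rose and 1 fell, again beside those shares. Plk2, a Polo-like kinase induced by p53, fell (-2.10, SE 0.40, adjusted p = 0.00068) and the cell death protein gene Bax rose (0.66, SE 0.25, adjusted p = 0.049), a call lost with most single mice left out, as that of Gadd45b was with 7 of them. Ccng1, at -0.42 and 0.96 under total counts, and Trp53inp1, at 0.83, did not pass. Without mice 40, 89, 145 and 154 the calls of Cdc25a, Tfdp2, Tob1, Gadd45b and Bax were lost. Under total counts Cdc25a stood at -0.04, Tfdp2 at -0.38 and Plk2 at -0.71.

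**Figure D5:**
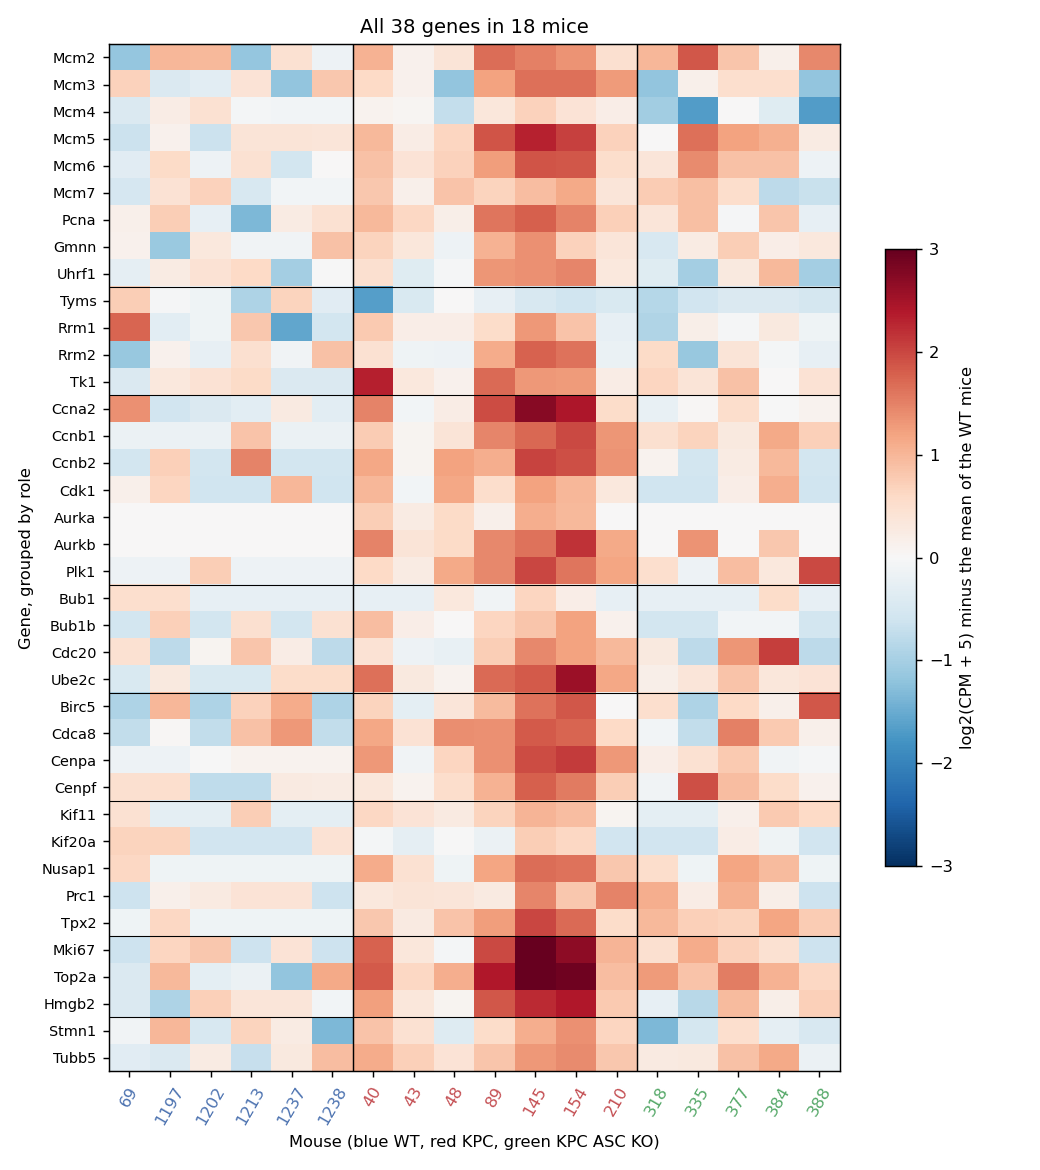
Each of the 38 genes (rows, grouped by role between the horizontal lines) in each of the 18 mice (columns), shown as log2(CPM + 5) minus the mean of the 6 WT mice, red where higher and blue where lower than that mean. KPC mice 89, 145 and 154 are red across most rows, KPC mouse 43 is near 0 in most, and Tyms is not red in these KPC mice.

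The loss of ASC on the KPC background was examined next. KPC ASC KO mice summed to 293.5, 375.1, 482.4, 456.3 and 266 CPM over the 38 genes in mice 318, 335, 377, 384 and 388, a mean of 374.6 ± 95.8 CPM (SD, n = 5) and 0.538 of the KPC mean. All 5 were below the lymphoid-rich KPC mice 40, 89, 145 and 154, and their range overlapped that of KPC mice 43, 48 and 210. As a plain share of counts the ratio was 0.273. Mitotic genes summed to 121.0 ± 37.2 CPM (SD, n = 5), 0.440 of the KPC mean, and replication genes to 153.3 ± 42.3 CPM (SD, n = 5), 0.601 of it.

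None of the 9 tested members was called in KPC ASC KO against KPC (edgeR), where 2.69% of all genes were called lower. All 9 differences were negative, with a median of -0.93 (all genes -0.05), 5 had an unadjusted p under 0.05, and adjusted p ran from 0.062 to 0.38. DESeq2 called 1, Hmgb2, and limma voom called 0. The fitted log2 differences were -1.53 for Cenpa (SE 0.53, adjusted p = 0.067), -1.47 for Hmgb2 (SE 0.49, adjusted p = 0.062), -1.47 for Stmn1 (SE 0.53, adjusted p = 0.080) and -1.18 for Top2a (SE 0.51, adjusted p = 0.15). Pcna was at -0.83, Rrm1 at -0.93, Mcm6 at -0.53, Mcm7 at -0.52 and Tubb5 at -0.41. Without the filter 1 of 38 fell, Hmgb2 (adjusted p = 0.034), against 0.908% of all genes called lower, and 17 had an unadjusted p under 0.05.

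The outcome of this comparison turned on which KPC mice were in it. Of the members that then passed the filter, 3 of 8 were called lower without KPC mouse 43, 3 of 10 without KPC mouse 48, 1 of 8 without KPC mouse 210 and 3 of 14 without KPC ASC KO mouse 377. Of all genes, 5.62%, 5.58% and 4.38% were called lower in the fits without a KPC mouse, and 187 of 7479 in that without mouse 377. Without the filter the call of Hmgb2 was lost with any WT mouse left out, and up to 11 of 38 members were called without KPC mouse 43 and 10 without KPC mouse 48 (3.07% and 2.46% of all genes). With mice 40, 89, 145 and 154 as the only KPC mice, 6 of the 9 members that then passed the filter and 19 of 38 were called lower, against 14.0% and 5.13% of all genes. With mice 43, 48 and 210 as the only KPC mice, 0 of 4 and 0 of 38 were (0.0171% and 0.380% of all genes), and the median difference was -0.14. These fits use the division made from the same data, hold fewer mice and are descriptive. Under total counts all 9 and 28 of 38 were called lower, as were 73.0% and 24.5% of all genes, with the median of all 6920 genes at -1.15. Bub1b was the only member in which all 5 KPC ASC KO mice (0 to 1.86 CPM) lay below all 7 KPC mice (2.40 to 12.0 CPM), against 0.686% of all genes. With at most 1 count in a KPC ASC KO library, that separation is near the limit of detection. From the other lists Tuba1b (-0.67, adjusted p = 0.041) and Smc4 (-1.32, adjusted p = 0.034) fell, calls lost without any 1 of several mice (KPC mouse 89, 145 or 154 for both, adjusted p to 0.15 over single mice). Tob1 (2.05, adjusted p = 0.014) and Plk2 (2.20, adjusted p = 0.0043) rose.

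KPC ASC KO and WT mice could not be distinguished in these genes at this depth. This comparison shares the WT mice with the first and the KPC ASC KO mice with the second, so the 3 are not independent. The KPC ASC KO mean of the 38 genes was 1.33 times the WT mean, with mice 318 and 388 (293.5 and 266 CPM) inside the WT range and mice 335, 377 and 384 above it. Mice 377 and 384, the highest, were also the KPC ASC KO mice with the highest macrophage sums (3403 and 3270 CPM, the others 968.9 to 1228) and fibroblast sums (3236 and 3086 CPM, the others 980.6 to 1163). Their acinar shares were the lowest of the group, 41.8% and 35.6% against 56.9% to 61.4%, and the part of these cells in the difference was not tested. None of the 9 members was called, where 0% of the 6920 genes were called in either direction. The median log2 difference was 0.39, no member had an unadjusted p under 0.05, and DESeq2 and limma voom also called 0. The highest fitted difference was that of Top2a (1.24, SE 0.75, adjusted p = 0.59). Without the filter 0 of 38 were called (0.0234% of all genes were called higher) and 7 had an unadjusted p under 0.05. Tpx2, with 1 count over the 6 WT libraries and 10 over the 5 KPC ASC KO libraries, was the only member in which every KPC ASC KO mouse lay above every WT mouse, against 0.285% of all genes. WT mouse 1197 (3.45 CPM) and KPC ASC KO mice 335 and 388 (3.91 and 4.22 CPM) each held 1 count. That separation is therefore near the limit of detection.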

How the data were processed

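Polyadenylated RNA of 18 snap-frozen mouse pancreases (6 WT, 7 KPC, 5 KPC ASC KO) was tagged at the poly(A) end with a sample index and a unique molecular identifier, per the labels' protocols. The deposited table holds whole-number counts of unique molecules per gene, not normalised, with gene symbols and positions. Per the submitters' processing notes, the authors used R 4.1.2 with edgeR 3.36.0, limma 3.50.0 and the mouse builds GRCm38 and mm10. The aligner, the collapsing of identifiers, the annotation release and the strand of counting were not given in the sources used here. Groups were taken from the genotype labels, which give no sex, litter or batch. Each library is 1 mouse.

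The counts as deposited were fitted here with edgeR 4.0.16 in R 4.3.3 (quasi-likelihood test, robust, all 18 mice in 3 groups, TMM scaling). Genes were kept by filterByExpr with a minimum count of 10, which left 6920, with Benjamini-Hochberg adjustment over all of them and calls at an adjusted p under 0.05. A second fit took all 25651 genes with the TMM factors of the 6920, because 29 of the 38 members failed the filter. That fit was added after their low counts were seen. Library totals of 294077 to 1626977 counts limit precision, and intervals and the floor of 3 counts cover counting error only. The script was tested on simulated counts. Alternatives were other scalings and filters, DESeq2 1.42.0, limma 3.58.1 (voom), B cell or acinar level as covariate, and mice left out.

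The members, the lists and the division of the KPC mice by lymphoid transcripts were chosen with earlier results of these data known. All 38 members are accounted for. Full values are given for Mki67, Top2a and up to 2 tested members of each role with the smallest p for KPC against WT, by mouse or, in groups over 5 mice, mostly as the lowest, median and highest. Up to 4 genes by the same order are named from each of 5 other cell cycle lists, while cell type lists are given as summed CPM. Ccna2, Ube2c and Aurkb were given by mouse after their values were seen. Promoters came from RefSeq (GRCm38.p6), where 7 members had no entry (Aurkb, Kif20a, Stmn1, Gmnn, Ccna2, Mcm4 and Tpx2). The deposited table also holds pseudogenes of Pcna (47 counts), Tyms (12), Ccnb2 (4) and Ccnb1 (2), which were not added to their parents.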

Additional observations from a re-analysis of the deposited data

Results flagged for a closer look

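Of 45 groups of 5 to 7 mice examined over 15 results for a mouse that stands apart, 1 met the criterion. Chance gives about 1 flag in 20 groups, so a single flag among 45 is no more than chance would give. In KPC mouse 43 the mitotic genes made up 22.2% of all member counts, and the nearest other KPC mouse was at 35.96%. The gap to the nearest mouse was large against the whole range of the KPC mice.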

How the results depend on the processing

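No paired analysis was possible because the mouse numbers are not shared between the groups. Over single mice left out, the members called higher in KPC against WT ran from 5 to 9 (9 to 20 of the 38 without a filter), and those called lower in KPC ASC KO against KPC from 0 to 3 (0 to 11 without a filter). None was called in KPC ASC KO against WT, with or without the filter. The medians of the tested members ran from 0.97 to 1.47, from -1.12 to -0.72 and from 0.24 to 0.57 in the 3 comparisons.

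For KPC against WT, 17 members were called with no filter, under either scaling of that fit, 10 of 25 with a minimum count of 5 and 1 in limma voom. The median of the tested members was 2.56 under total counts, where 35 of 38 were called without a filter and the ratio of summed CPM was 6.06. With the acinar level as a covariate 0 were called and the median of the 9 was 0.53. Without KPC mice 40, 89, 145 and 154, 0 were called and the median was 0.51, over only the 4 that then passed the filter. Without a filter these 2 settings also gave 0 calls, and the B cell covariate gave 4.

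For KPC ASC KO against KPC, total counts gave 9 calls (28 of 38 without a filter), a median of -1.99 and a ratio of 0.273. With no filter, 3 of 38 members were called under its own scaling and 1 of 38 under the scaling of the filtered genes. DESeq2 called 1 of 9, and with the acinar genes left out 1 of 7 was called. Without KPC mice 43, 48 and 210 there were 6 calls (19 of 38), and without KPC ASC KO mice 377 and 384 there were 2 (9 of 38), both chosen after seeing the data. The median of the 9 tested members was -0.54 with the B cell covariate and -0.35 with the acinar covariate. Without KPC mice 40, 89, 145 and 154 it was -0.14, over only the 4 of them that then passed the filter. Without a filter these 3 settings gave 0 calls.

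The differences that changed sign were not called in the fit reported. For KPC against WT, Rrm1 turned to -0.096 (B cell covariate) and -0.34 (acinar covariate) and ran from -0.013 (without WT mouse 1237) to 1.11 over single mice. Btg1 turned to -0.020 without KPC mice 40, 89, 145 and 154, and Pold2 to 0.65 and Ccng1 to 0.96 under total counts, where Ccng1 passed (adjusted p = 0.011). Without the filter, 6 members turned negative without KPC mice 40, 89, 145 and 154 (Mcm4 -0.06, Uhrf1 -0.31, Rrm1 -0.47, Rrm2 -0.40, Ccna2 -0.03 and Birc5 -0.61) and 5 with the acinar covariate (Mcm4 -0.67, Uhrf1 -0.33, Rrm1 -0.39, Cdc20 -0.10 and Stmn1 -0.097). Tyms, Bub1 and Kif20a turned positive under total counts (0.34, 0.99 and 1.14), and Bub1 and Kif20a also with the scaling of all genes and without KPC mice 43, 48 and 210. For KPC ASC KO against KPC, Mcm6 turned to 0.043 with the acinar covariate. For KPC ASC KO against WT, Mcm7 turned to -0.015 in limma voom and Hmgb2 to -0.092 without KPC ASC KO mice 377 and 384. Over single mice, Rrm1 ran from -0.94 to 0.18 (without WT mouse 69) and Hmgb2 from -0.0100 (without mouse 377) to 0.64. The cause of these changes was not tested. Depth limits all statements on WT and KPC ASC KO levels, where most members had fewer than 10 counts in a library.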
